A study of Canis lupus familiaris with 17 samples.

Results

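Platelet RNA was followed in the blood leukocyte preparations of 17 dogs. A barcode, the tag shared by all molecules captured in a droplet, was kept when it held over 200 genes, 500 to 20000 unique molecular identifiers (UMIs, each standing for 1 captured RNA molecule) and under 10% mitochondrial UMIs. Among 84394 kept barcodes, 5801 held at least 1 UMI of at least 2 of the 4 platelet genes TUBB1, ITGA2B, ITGB3 and PPBP and are called platelet barcodes here, 6.87% of the total. They were thus selected on the measured UMIs of these 4 genes. They were then split by whether they also held a UMI of CD3E, MS4A1, DLA-DRA or S100A12, genes of T cells, B cells, antigen-presenting cells and neutrophils or monocytes. There were 2796 platelet barcodes without such a leukocyte gene and 3005 with one. Of the 3005, 1261 held CD3E and DLA-DRA and neither other gene, so DLA-DRA is not read as a marker of antigen-presenting cells here.

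Platelets are cell fragments without a nucleus that megakaryocytes shed into blood, and they carry a small store of megakaryocyte RNA. They stick to vessel walls and to each other through integrins and glycoprotein receptors, release granules when activated, and can attach to leukocytes. A droplet with platelet RNA may hold a platelet alone, a leukocyte with a platelet attached, a leukocyte and a separate platelet, or a leukocyte and loose platelet RNA. TUBB1 is the tubulin of the platelet marginal band, ITGA2B and ITGB3 form the fibrinogen receptor, and PPBP encodes a chemokine precursor of the alpha granules.

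The study compared circulating leukocytes of 7 healthy pet dogs, which were middle-aged, with those of 10 pet dogs with osteosarcoma (OS), a malignant bone tumor, that had a primary tumor and had received no treatment. All samples carry the genotype label Wt and were primary cells from EDTA blood, isolated over Ficoll, freed of red cells by lysis and washed at low speed to lower the number of platelets. Some dogs with OS were older than every healthy dog, and age, sex and breed entered no fit. Each dog gave 1 library of the 10x Genomics 3′ chemistry, and the dog was the replicate. The deposited matrices held 7740230 to 56510134 UMIs per dog, with 1239 to 7075 kept barcodes and medians of 3674 to 6718 UMIs per kept barcode. Healthy dog 1 and OS dog 6 stood apart: PPBP was found in 31.3% and 30.3% of their kept barcodes, against a median of 9.41% over all dogs. OS dog 3 had the fewest kept barcodes, 1239, of which 7 were platelet barcodes. Of 83467 barcode sequences, 922 occurred in more than 1 dog, and 2 of 5799 platelet barcode sequences were platelet barcodes in more than 1 dog. No doublet caller was run, since a leukocyte with platelet RNA is what a caller may remove.

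Since the rule asks for 2 of the 4 markers, their presence together is set by it and is given as a description. PPBP was found in 95.9% of the platelet barcodes, TUBB1 in 90.6%, ITGA2B in 83.4% and ITGB3 in 33.5%. Most held TUBB1, ITGA2B and PPBP without ITGB3, 2543 barcodes, or all 4 markers, 1644 barcodes. Among those without a leukocyte gene, 1144 of 2796 barcodes held 4 markers and 143 held exactly 2. With a leukocyte gene, 500 of 3005 held 4 markers and 1300 held exactly 2, so the barcodes at the edge of the rule were mostly those with leukocyte RNA. Just outside the rule lay 8077 barcodes with exactly 1 marker, and in 5816 of them that marker was PPBP.

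GNG11, which encodes a G protein subunit abundant in platelets, and GP1BB, a subunit of the von Willebrand factor receptor, took no part in the choice. GNG11 was detected in 7.27% of barcodes with no marker and a leukocyte gene, and in 29.7%, 79.7%, 97.3% and 100% of those with 1, 2, 3 and 4 markers and a leukocyte gene. Without a leukocyte gene the shares were 4.80%, 38.1%, 93.7%, 99.6% and 99.9% for 0 to 4 markers. GP1BB went from 0.770% with no marker through 5.45%, 44.1% and 81.5% to 96.2% with 4 markers where a leukocyte gene was present. Detection of both genes thus rose with each marker in both kinds of barcode, and the step between 1 and 2 markers was the widest. These shares pool all dogs and are a description. Depth moved with them unevenly: the median was 667 UMIs for 2-marker barcodes without a leukocyte gene and 6189 UMIs for those with one.

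**Figure D1:**
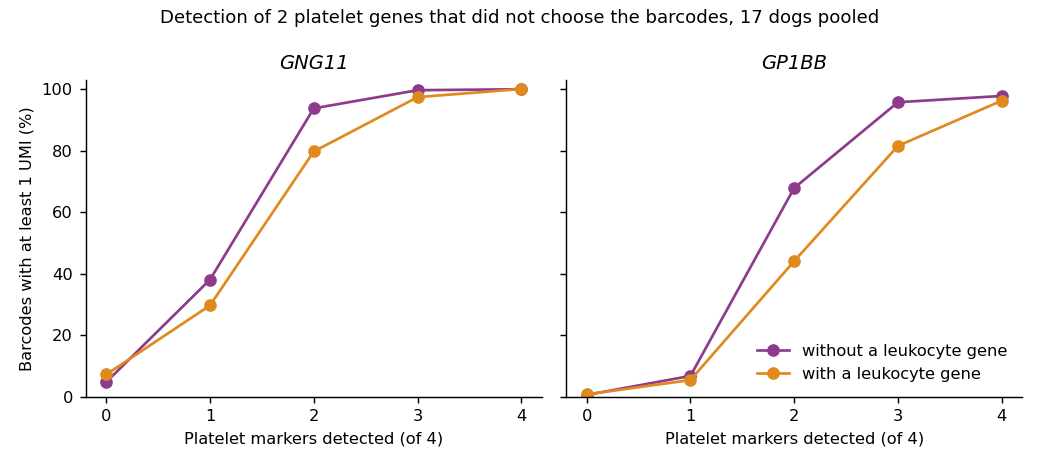
Percentage of barcodes with at least 1 UMI of GNG11 (left) or GP1BB (right) against the number of platelet markers detected, for barcodes without and with a leukocyte gene, all 17 dogs pooled. Detection climbs from under 8% with no marker to at least 96.2% with 4 markers in both kinds of barcode.

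The 2 kinds of platelet barcode differed in size. Those without a leukocyte gene had a median of 744 UMIs and 344 genes. The deposited matrices begin at 500 UMIs, and 866 of the 6164 barcodes with 2 markers before any limit lay between 500 and 599, so smaller platelets were not analysed here. Of those 6164, 152 were over 20000 UMIs, 55 had no more than 200 genes and 156 had 10% or more mitochondrial UMIs, and these were left out. Platelet barcodes with a leukocyte gene had a median of 5492 UMIs and 2021 genes, near the 5422 UMIs and 2024 genes of barcodes with no marker.

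**Figure D2:**
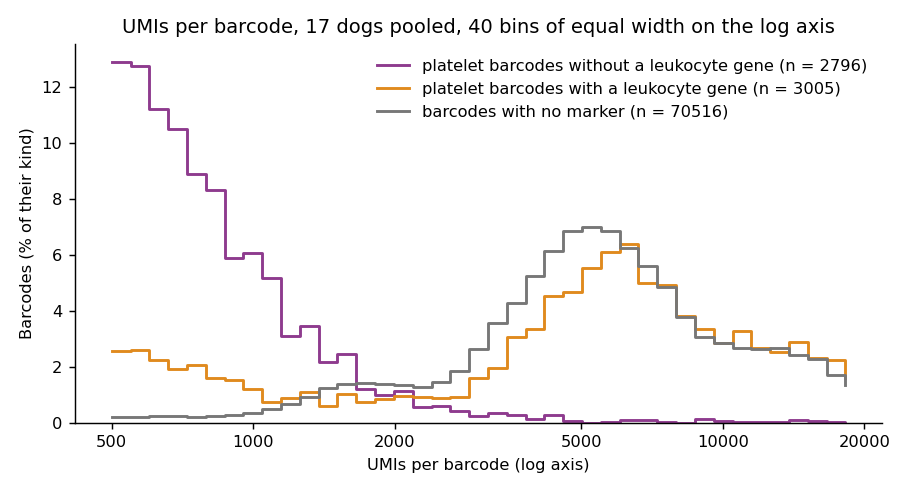
Distribution of UMIs per barcode (log axis) as a percentage of each kind of barcode, all 17 dogs pooled. Platelet barcodes without a leukocyte gene pile up at the lower limit of 500 UMIs, those with a leukocyte gene show a main body near that of barcodes with no marker and a second, smaller one under 1500 UMIs.

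Platelet barcodes with a leukocyte gene were themselves of 2 sizes. A group of 569, or 18.9%, held fewer than 1500 UMIs, and 474 of these had exactly 1 UMI over the 4 leukocyte genes, most often of DLA-DRA, an MHC class II chain, which was present in 428. Their median of 728 UMIs, their mean of 17.4 marker UMIs and their GNG11 detection of 98.4% lay near the 744 UMIs, 21.0 marker UMIs and 99.4% of barcodes without a leukocyte gene. The other 2436 had a median of 6289 UMIs, a mean of 27.8 leukocyte gene UMIs and 8.86 marker UMIs, and CD3E was present in 1427 of them. The split by leukocyte gene therefore left some barcodes of platelet size on the leukocyte side. Of the barcodes without a leukocyte gene, 2521 of 2796 held fewer than 1500 UMIs and 139 held over 2000. These 139 had a mean of 45.2 marker UMIs and 42.2 GNG11 UMIs per barcode, against 21.0 and 22.9 over all barcodes without a leukocyte gene, and a mean of 4.91 UMIs of pan-leukocyte genes against 0.563.

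Platelet barcodes without a leukocyte gene also held less ribosomal protein RNA and less mitochondrial RNA, as a mean over dogs. Genes of ribosomal proteins made up a mean of 9.85% ± 1.90 of UMIs (SD, n = 17 dogs, median barcode of each dog) without a leukocyte gene, 14.8% ± 2.62 with one and 16.3% ± 3.37 in barcodes with no marker. Mitochondrial UMIs made up 1.79% ± 0.494, 2.63% ± 0.671 and 2.89% ± 0.576, in the same order.

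Gene levels are given below as CPM (counts scaled to a common total of 1000000) of the UMIs summed over a dog's barcodes, as mean ± SD over dogs with at least 25 such barcodes, 16 dogs without and 15 with a leukocyte gene. Because the rule chose barcodes on platelet genes, the contrast with other barcodes is a description with no test. Of 16220 genes with at least 10 UMIs over these barcodes and those with no marker, 9.55% had a mean CPM above 2 times that of barcodes with no marker in the platelet barcodes without a leukocyte gene, and 77.9% had the reverse. Beside this, of the genes of the lists below, 12 of 13 surface receptors, 12 of 19 granule and secreted proteins, 16 of 20 signalling genes, 14 of 14 genes of the cytoskeleton and release and 6 of 12 megakaryocyte regulators were above 2 times. Nothing is read from these counts, since the rule used this contrast.

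The markers themselves varied moderately between dogs. TUBB1 stood at 8484 CPM ± 1879, from 6066 to 12800, in platelet barcodes without a leukocyte gene and at 672 CPM with one. PPBP stood at 8454 CPM ± 2084 (range 4590 to 12250), ITGA2B at 4706 ± 978 (2857 to 6614) and ITGB3 at 721 ± 223 (269 to 1262). In the platelet barcodes with a leukocyte gene they were at 787, 410 and 61.7 CPM, in the same order. The levels of all 4 were thus lower with a leukocyte gene, where barcodes also held fewer marker UMIs, a mean of 10.5 against 21.0. They are 0 in barcodes with no marker because the rule made them so.

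Among surface receptors, GP1BB was at 11510 CPM ± 4599 without a leukocyte gene, 925 with one and 1.22 in barcodes with no marker. GP6, the collagen receptor, was at 2084 ± 536, 165 and 0.714 CPM. The laminin and collagen receptor chains ITGA6 and ITGB1 were at 1691 ± 548 and 1821 ± 460 CPM, against 31.5 and 224 CPM in barcodes with no marker. Leukocytes use ITGB1 as well. CLEC1B, the podoplanin receptor, was at 329 ± 150 CPM, PECAM1 at 710 ± 307 and CD9 at 193 ± 64.9. CD36, a scavenger receptor of human platelets, had no UMI in any of the 2796 barcodes and was at 0.0689 CPM in barcodes with no marker. GP1BA, GP5 and GP9 are absent by name from the counted genes and were not analysed here.

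Granule and secreted proteins were uneven. TIMP1, an inhibitor of matrix metalloproteinases, was at 9123 CPM ± 3171, THBS1, thrombospondin, at 2404 ± 713, NRGN at 1696 ± 430 and the granule membrane protein CD63 at 1602 ± 618, against 283, 31.2, 1.12 and 308 CPM in barcodes with no marker. SELP, the P-selectin by which activated platelets bind leukocytes, was at 1435 ± 492.9 CPM against 3.28. EGF was at 367 ± 178 CPM and the factor XIII chain F13A1 at 425 ± 145. Several proteins that human platelets store were low: VWF at 4.65 CPM, SPARC at 0.577, coagulation factor F5 at 0.414 and CLU at 15.5. In barcodes with no marker they were at 2.56, 1.04, 21.6 and 0.762 CPM. CLU, on 58 UMIs over all dogs, was higher in the platelet barcodes in 11 of 16 dogs. VWF rested on 7 UMIs with a median of 0 CPM and was higher in 7 of 16 dogs, so no direction is read for it. SPARC and F5 rested on 1 and 2 UMIs. CCL5 and SRGN, which leukocytes make too, were lower than in barcodes with no marker, at 15.8 against 440 CPM and 86.4 against 304 CPM. PF4, TREML1 and MMRN1 were likewise absent by name.

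Signalling genes were led by GNG11 at 23440 CPM ± 5559, from 10470 to 33170, and by RGS18, a regulator of G protein signalling, at 10110 ± 2283, against 14.5 and 85.1 CPM in barcodes with no marker. TBXAS1 and PTGS1, the enzymes of thromboxane synthesis, were at 2320 ± 620 and 693 ± 148 CPM, against 145 and 0.512. FERMT3, which activates integrins, was at 1258 ± 391. Among thrombin receptors F2RL3 was at 1109 ± 266 CPM, F2R at 15.4 and F2RL2 without a UMI. The ADP receptors P2RY12 and P2RY1 were at 23.3 ± 15.3 and 9.95 ± 7.66 CPM, and the thromboxane receptor TBXA2R at 14.8 ± 21.3. These receptors rested on 66, 25 and 50 UMIs over all dogs, so their levels are poorly determined.

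For the cytoskeleton, TPM4 was at 7085 CPM ± 2289, TLN1, the talin that couples integrins to actin, at 6243 ± 1511, the non-muscle myosin MYH9 at 3431 ± 953 and its light chain MYL9 at 3181 ± 956. In barcodes with no marker the levels were 49.96, 399, 412 and 3.49 CPM. Of the transcription factors of megakaryocytes, TAL1 was at 594 ± 157 CPM against 5.68, NFE2 at 367 ± 124 against 34.4 and GATA1 at 104 ± 70.3 against 1.24. RUNX1 and FLI1, which leukocytes also transcribe, were lower in platelet barcodes than in barcodes with no marker, RUNX1 at 163 ± 148 against 796 CPM and FLI1 at 53.8 ± 63.7 against 268. GATA2 had no UMI.

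**Figure D3:**
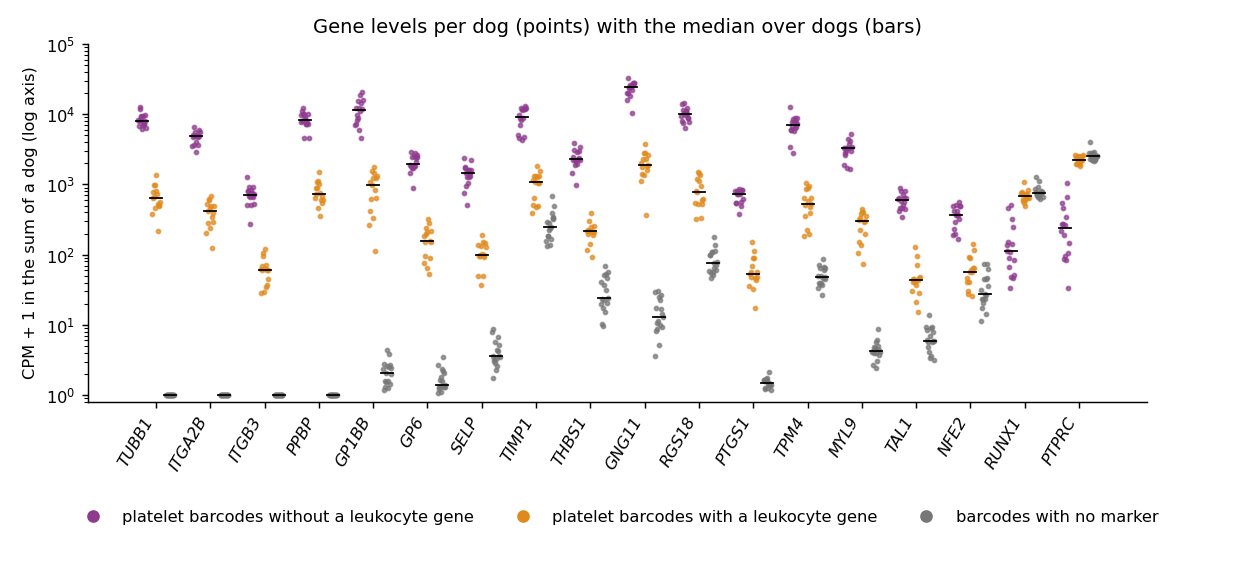
CPM plus 1 (log axis) of 18 genes in the summed barcodes of each dog (points) and the median over dogs (bars), for platelet barcodes without a leukocyte gene, with one, and barcodes with no marker. Platelet genes sit highest without a leukocyte gene and lowest in barcodes with no marker, where the 4 markers are 0 by the rule, and RUNX1 and PTPRC run the other way.

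Genes of T cells, monocytes, neutrophils and leukocytes at large were scarce without a leukocyte gene. The erythroid and the eosinophil and basophil lists had higher mean CPM there than in all barcodes with no marker. The summed pan-leukocyte list, PTPRC, CORO1A, CD52 and LAPTM5, ranged from 145 to 2104 CPM over dogs against 3826 to 5006 CPM in barcodes with no marker, and the T cell list from 0 to 55.4 CPM against 534 to 1478. The monocyte list ranged from 98.6 to 1052 CPM against 3680 to 17880, LYZ being at 215 CPM, and the neutrophil list from 38.0 to 462 against 1894 to 11200. CD3E, MS4A1, DLA-DRA and S100A12 are 0 there by the rule. Still, 612 of the 2796 barcodes held a pan-leukocyte gene. Of the progenitor list, CD34 had no UMI and KIT was at 0.201 CPM, while GUCY1A1, a soluble guanylate cyclase subunit that platelets also use, was at 584 ± 155.  The eosinophil and basophil list summed to a mean of 340 CPM against 181 in barcodes with no marker, led by PADI3 at 255 ± 116 against 142 CPM, which was higher in 15 of 16 dogs. The erythroid list summed to 557 against 219.5 CPM. In it, the globin HBM was at 1180 CPM in OS dog 1, 501 in OS dog 2 and 494 in healthy dog 1, and at no more than 25.8 CPM in each of the other 13 dogs. SLC4A1, the anion exchanger of red cells, had no UMI. The split uses no eosinophil, basophil or erythroid gene, and 67390 of the 70516 barcodes with no marker held a leukocyte gene. Platelet barcodes without a leukocyte gene held means of 0.339 eosinophil and basophil UMIs and 0.640 erythroid UMIs each. Barcodes with neither a marker nor a leukocyte gene held more, 4.75 and 4.97. Their median was 1636 total UMIs against 744, so depth was not matched.

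The B cell list did not serve to name cells. CD79A was at 3793 CPM ± 1086 in platelet barcodes without a leukocyte gene and at 5963 CPM in barcodes with no marker, and BANK1 was higher in the former, 420 ± 270 against 272 CPM. As a result 432 of 722 platelet barcodes called B cell-like held no leukocyte gene. Values of the B cell-like class are therefore not read.

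Outside the lists, 8 genes were named for the largest ratio of mean CPM to that of barcodes with no marker at 100 CPM or more. They were HSPB3 at 381 CPM, PLEKHA4 at 544, ACTA2 at 299, DPYS at 511, ENSCAFG00000003445 at 128, NCCRP1 at 252, the water channel AQP1 at 356 and the chemokine CCL14 at 3536. PLEKHA4 and HSPB3 had ranges over dogs of 240 to 768 and 212 to 775 CPM. ACTA2, smooth muscle actin, was at 2356 CPM in healthy dog 4 and between 9.23 and 416 CPM in the other 15 dogs, and NCCRP1 ranged from 0 to 1226 CPM. CCL14 ranged from 1071 to 7365 CPM.

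The first comparison of the design asked whether dogs with OS held a different share of platelet barcodes. Platelet barcodes were 1.34% to 7.94% of kept barcodes in healthy dogs, with a median of 6.02%, and 0.565% to 13.2% in dogs with OS, with a median of 7.48%. The means were 5.18% ± 2.91 (SD, n = 7) and 7.34% ± 3.57 (SD, n = 10). The 5 highest shares belonged to OS dogs, 13.2%, 10.6%, 9.31%, 8.74% and 8.57%, but so did the lowest, and the groups overlapped. By the two-sided exact rank-sum test p was 0.161, adjusted p = 0.459 over 4 shares, with a shift of 2.48 percentage points and a 95% interval of -1.53 to 5.31. Counting error was small beside the spread between dogs: the exact binomial 95% interval was 12.3% to 14.1% for OS dog 5 and 1.09% to 1.64% for healthy dog 4, and such intervals cover counting error only.

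Both kinds of platelet barcode behaved alike in this test. The shares without a leukocyte gene were 0.481% to 4.77% with a mean of 2.64% ± 1.54 in healthy dogs and 0.242% to 6.61% with a mean of 3.51% ± 1.81 in dogs with OS, and the exact rank-sum test gave p = 0.417, adjusted p = 0.459. With a leukocyte gene they were 0.543% to 5.79%, mean 2.54% ± 1.84, and 0.323% to 7.26%, mean 3.83% ± 2.24, with p = 0.315 and adjusted p = 0.459 in the same exact test. Intervals of the shift were -0.805 to 2.61 and -0.823 to 3.51 percentage points. The share of platelet barcodes that held a leukocyte gene averaged 47.5% ± 15.6 and 51.8% ± 11.8 (exact p = 0.459), and the highest values were 72.9% in healthy dog 1 and 78.0% in OS dog 6. No difference between the groups was found at this number of dogs, and differences of several percentage points lie inside the intervals.

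Leukocyte lineage was given to a barcode by lists of T cell, B cell, monocyte and neutrophil genes, with at least 2 detected genes and 2 more than each other list. Of the 3005 platelet barcodes with a leukocyte gene, 1018 were T cell-like, 426 monocyte-like, 131 neutrophil-like, 290 B cell-like and 1140 unassigned. At least 2 genes of both the T cell and the B cell list were found in 219 of these 3005 (7.29%). Among barcodes with no marker the count was 3155 of 70516 (4.47%). Since the B cell list did not serve to name cells, these counts are not read as mixtures of T and B cells. Over dogs, 2.79% ± 2.05 of T cell-like barcodes, 2.90% ± 2.17 of monocyte-like and 2.10% ± 1.53 of neutrophil-like barcodes were platelet barcodes (SD, n = 17). Among T cell-like barcodes the share ranged from 0.352% to 5.59%, median 1.81%, in healthy dogs and from 0.179% to 7.78%, median 2.68%, in dogs with OS. Among monocyte-like barcodes the medians were 1.13% and 3.65%, and among neutrophil-like barcodes 1.63% and 2.13%. The median was higher in OS for each of these lineages, and the ranges overlapped. None passed the exact rank-sum test, with p = 0.417 for T cell-like (adjusted p = 0.417), p = 0.138 for monocyte-like (adjusted p = 0.268) and p = 0.201 for neutrophil-like barcodes (adjusted p = 0.268). The exact test for the B cell-like class, which is not read but was part of the adjustment, gave p = 0.0702.

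The amount of platelet RNA per leukocyte was then compared within dogs, over all barcodes of a lineage whether or not they held a marker. T cell-like barcodes held a mean of 0.315 ± 0.214 marker UMIs each (SD, n = 17), monocyte-like barcodes 0.349 ± 0.219 and neutrophil-like barcodes 0.236 ± 0.145. Monocyte-like barcodes held 0.114 more than neutrophil-like ones, in 14 of 17 dogs (exact sign-flip permutation test over dogs, adjusted p = 0.0128 over 6 pairs of classes). The differences of T cell-like from monocyte-like barcodes, -0.0341, and from neutrophil-like barcodes, 0.0794, did not pass (adjusted p = 0.163 and 0.0554, same permutation test). The 6 pairs include those with the B cell-like class, which is not read, and the adjusted p depend on them. T cell-like, monocyte-like and neutrophil-like barcodes differ in their own RNA, and the order turned with the scale. Median UMIs of barcodes that were not platelet barcodes were 5680 for T cell-like, 11971 for monocyte-like and 1839 for neutrophil-like ones. As CPM of the class sum, neutrophil-like barcodes were highest at 91.4 CPM, T cell-like next at 51.0 and monocyte-like lowest at 29.95. CPM divides by each lineage's own RNA, so this order is a description and is not read as an amount of platelet RNA. Thinned to 1000 UMIs per barcode, 1.23% of neutrophil-like, 0.583% of T cell-like and 0.364% of monocyte-like barcodes were platelet barcodes, 153, 6 and 121 shallower barcodes being left out. The call for monocyte-like over neutrophil-like barcodes was lost without healthy dog 1 and OS dog 6 (difference 0.0899, adjusted p = 0.0505 in the exact test) and with PPBP left out of the markers (0.0329, adjusted p = 0.138), both chosen after the data were seen, so no lineage is said to carry more platelet RNA.

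Within the platelet barcodes of each lineage, means of marker UMIs, whose lower end the rule sets, were 7.08 in T cell-like, 7.29 in monocyte-like and 7.34 in neutrophil-like platelet barcodes, although their medians of total UMIs were 6222, 12550 and 2138, and barcodes without a leukocyte gene had a mean of 21.0. GNG11, which did not choose the barcodes, had means of 6.99, 7.03 and 9.18 UMIs in the same order, and GP1BB 2.76, 3.26 and 3.53. A lineage was given only to barcodes with enough leukocyte RNA, 1786 of the 2436 platelet barcodes with a leukocyte gene over 1500 UMIs and 79 of the 569 below, so the leukocyte level of these barcodes is partly set by that choice. Pan-leukocyte genes summed to a mean of 28.7 UMIs in T cell-like platelet barcodes against 27.7 in other T cell-like barcodes, 54.9 against 52.0 in monocyte-like and 9.76 against 9.34 in neutrophil-like ones. Genes of platelet signalling, which did not choose the barcodes, summed to 14.3 against 3.05 UMIs in T cell-like, 29.7 against 18.3 in monocyte-like and 18.8 against 4.16 in neutrophil-like barcodes. The platelet signalling sums were higher in the platelet barcodes of all 3 lineages.

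Ratios between platelet genes were compared across these barcodes as a description. GP1BB per GNG11 UMI was 0.535 without a leukocyte gene, 0.395 in T cell-like, 0.463 in monocyte-like and 0.384 in neutrophil-like platelet barcodes, with ranges over dogs that overlapped (0.211 to 0.835 without a leukocyte gene, and 0.173 to 0.649, 0.230 to 0.681 and 0.162 to 0.871). In barcodes of these lineages with fewer than 2 markers it was lower, 0.103, 0.0956 and 0.132. Ranges over dogs were 0.0455 to 0.242, 0 to 0.192 and 0.0756 to 0.269. They overlapped those of the platelet barcodes for T cell-like and neutrophil-like but not for monocyte-like barcodes. All these ranges cover only dogs with enough GNG11 UMIs for a ratio, so the sets of dogs differ. There were 17 such dogs without a leukocyte gene, and 16, 13 and 11 for T cell-like, monocyte-like and neutrophil-like platelet barcodes. With fewer than 2 markers there were 15, 15 and 7, in the same order. PPBP per TUBB1 UMI, a ratio of 2 markers, was 0.997 without a leukocyte gene, 1.42 in T cell-like, 1.41 in monocyte-like and 0.981 in neutrophil-like platelet barcodes. These ratios pool the UMIs of all dogs, and the part of GNG11 made by leukocytes or present as loose RNA was not tested.

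The 2 dogs with the most PPBP stood apart in these leukocyte barcodes. PPBP was in 31.4% of T cell-like and 29.0% of monocyte-like barcodes of healthy dog 1 and in 28.0% and 31.3% of those of OS dog 6, while in the other 15 dogs the highest shares were 12.2% and 16.4%. TUBB1 was in 5.19% and 3.82% of the same barcodes of healthy dog 1 and in 7.17% and 7.27% of those of OS dog 6, against 0.538% to 6.38% and 0.719% to 8.18% in the other dogs. In the platelet barcodes without a leukocyte gene of these 2 dogs, PPBP per TUBB1 was 1.17 and 1.00, and the range over all dogs was 0.729 to 1.17. PPBP thus stood apart in the leukocyte barcodes of both dogs, while TUBB1 stood above the other dogs only in the T cell-like barcodes of OS dog 6. GNG11 was also high: it was in 21.7% and 23.0% of T cell-like barcodes of healthy dog 1 and OS dog 6, against at most 19.7% in the other dogs, and in 27.6% and 22.5% of monocyte-like barcodes, against at most 26.1%.

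Across dogs, the share of platelet barcodes without a leukocyte gene was set beside the mean marker UMIs of all other barcodes. These ranged from 0.0631 in OS dog 3 to 1.02 in OS dog 2. Pearson's r was 0.623 and Spearman's rho 0.635 over 17 dogs. Both measures are built from UMIs of the 4 markers that the rule used, and the other barcodes include platelet barcodes with a leukocyte gene, 569 of them of platelet size, so the relation is partly built in and is given as a description with no test. Within groups r was 0.507 in healthy dogs and 0.654 in dogs with OS. Without OS dogs 3 and 5, the farthest on the share, r was 0.417. Healthy dog 1 and OS dog 6 lay above the other dogs of like share, though below OS dogs 2 and 5, with 0.888 and 0.730 marker UMIs per other barcode at shares of 2.16% and 2.05%. With PPBP left out of the markers r was 0.799 over all dogs, 0.837 in healthy dogs and 0.777 in dogs with OS, a choice made after the data were seen. Both also come from the same library. Attached platelets, separate platelets caught with a leukocyte and loose platelet RNA cannot be told apart here.

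**Figure D4:**
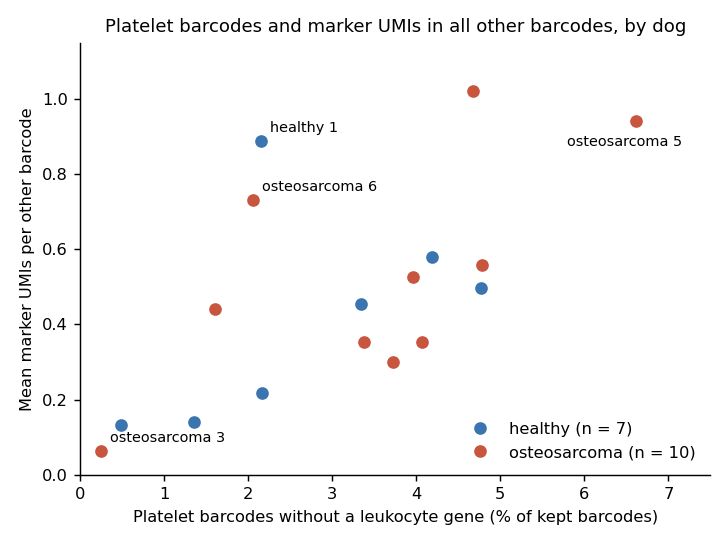
Mean UMIs of the 4 markers per barcode, over all kept barcodes other than platelet barcodes without a leukocyte gene, against the share of the latter, for 7 healthy dogs and 10 dogs with osteosarcoma. The values rise together (r = 0.623), with healthy dog 1 and OS dog 6 above the other dogs of like share.

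Gene levels in platelet barcodes were then compared between dogs with OS and healthy dogs on UMI sums per dog. Without a leukocyte gene, 6878 genes were tested over 16 dogs (OS dog 3 had too few barcodes), with 26319 to 317365 UMIs per dog. With thresholds of 0.01 on the Benjamini-Hochberg adjusted p and 0.58 on the size of the log2 fold change, edgeR's quasi-likelihood test called 0 genes (0%), and DESeq2 also called 0. Unadjusted p was below 0.05 for 348 genes, 5.06% of those tested. With a leukocyte gene, 12295 genes were tested over 15 dogs (healthy dog 2 and OS dog 3 left out), edgeR called 0 (0%), 929 or 7.56% had an unadjusted p below 0.05, and DESeq2 called 4. With no filter beyond 1 count, edgeR called 22 genes without a leukocyte gene. Beyond a check of the fit on simulated sums with known changes, the smallest change that these sums could show was not determined.

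The 4 markers chose these barcodes, so their levels in the 2 groups are a description with no test. In barcodes without a leukocyte gene TUBB1 was at 6751 to 12800 CPM, median 9257, in healthy dogs and at 6066 to 9692, median 7356, in dogs with OS, with a log2 fold change (OS over healthy) of -0.06 ± 0.30 (SE). PPBP was at 7684 to 12250, median 9959, and at 4590 to 10200, median 7356, with -0.20 ± 0.30. The medians of both were lower in OS in plain CPM while the fitted changes, after scaling by the trimmed mean of M values (TMM), were near 0. ITGA2B and ITGB3 had fitted changes of 0.15 ± 0.30 and -0.08 ± 0.25, and GP1BB one of 0.62 ± 0.36, with healthy dogs at 7098 to 15610 CPM and dogs with OS at 4532 to 20680. GP1BB, which did not choose the barcodes, had an adjusted p of 0.955 in edgeR. The groups overlapped for all 5 genes.

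No gene of the platelet lists was called in either direction in either kind of barcode. Without a leukocyte gene the median log2 fold change was 0.32 over 12 surface receptors tested, 0.37 over 15 granule and secreted proteins, 0.11 over 19 signalling genes, 0.12 over 14 genes of the cytoskeleton and release and -0.11 over 10 megakaryocyte regulators, beside 0.11 over all genes tested. That last median was -0.06 with library size alone, so the sign of small changes depends on the scaling. With a leukocyte gene the medians were 0.09, 0.50, 0.04, 0.08 and 0.19 for the same lists, beside 0.02 for all genes. In those barcodes the monocyte list had a median of 0.99 over 7 genes and the B cell list one of -1.09 over 7 genes. The T cell, neutrophil, MHC class II and pan-leukocyte lists had medians of -0.09, 0.54, 0.29 and 0.09. An unadjusted p below 0.05, which 7.56% of all genes had in these barcodes, was found for 6 of 7 monocyte genes, 2 of 7 B cell genes, 3 of 11 interferon-stimulated genes, 2 of 17 granule genes and 1 gene each of the megakaryocyte, neutrophil, eosinophil and basophil, pan-leukocyte, MHC class II and immediate early lists. All 7 monocyte genes were above 0, as were 6434 of all 12295 genes. Barcodes without a leukocyte gene, with 5.06% over all genes, had such a p for 3 of 5 eosinophil and basophil genes, 2 of 7 monocyte genes, 2 of 4 immediate early genes and 1 gene each of the granule, signalling, neutrophil and pan-leukocyte lists. None of these genes was called. Barcodes with a leukocyte gene mix lineages, and the make-up of the mixture was not a term of the fit.

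Interferon-stimulated genes had a median of 0.45 over 7 genes without and 0.58 over 11 with a leukocyte gene, and immediate early genes 2.04 over 4 and 0.75 over 7, with no call. FOS, of the immediate early list, was at 1372 CPM in OS dog 4 and at no more than 38.0 CPM in each of the other 15 dogs without a leukocyte gene. Its fitted change of 6.02 ± 1.48 had an adjusted p of 0.298 in edgeR, and it was called with no filter beyond 1 count (5.97, adjusted p = 2.64e-12). The erythroid list had medians of 0.64 and 0.38, the eosinophil and basophil list 1.74 and 0.44, and the progenitor list 0.13 for the 1 gene tested and -0.67 over 5, again with no call. HBM, of the erythroid list, was among the 22 genes called without a leukocyte gene with no filter beyond 1 count (log2 fold change 1.52, adjusted p = 0.00731 in edgeR).

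The genes nearest to a call were chosen after their values were seen. CIDEA, which encodes a lipid droplet protein, was at 10.8 to 76.55 CPM, median 54.9, in platelet barcodes without a leukocyte gene of healthy dogs and at 18.5 to 652 CPM, median 190, in those of dogs with OS. Of the 9 dogs with OS, 8 lay above every healthy dog, and OS dog 6, at 18.5, lay among them. The log2 fold change was 2.53 ± 0.48 with an adjusted p of 0.0272 in edgeR, short of the threshold of 0.01. Over 29 settings the adjusted p ranged from 2.31e-07 to 0.2245 and the log2 fold change from 2.16 to 2.90, and 6 settings passed both thresholds. In barcodes with no marker CIDEA was at 0.0707 and 0.0755 CPM in healthy dogs and dogs with OS. In platelet barcodes with a leukocyte gene it was at 3.91 and 24.3 CPM, with a log2 fold change of 2.27 and an adjusted p of 0.556. TCF4 and RAB3C had the same adjusted p in edgeR, 0.0272, and changes of -4.29 and -5.04, which rested on healthy dog 3 at 573 and 271 CPM. Without that dog TCF4 was no longer near a call (log2 fold change -0.47, adjusted p = 0.998 in edgeR). With a leukocyte gene ENSCAFG00000031706 came nearest, at 16.8 to 27.0 CPM in 6 healthy dogs and 36.5 to 99.6 in 9 dogs with OS, without overlap, with a log2 fold change of 1.65 ± 0.26 and an adjusted p of 0.0431 in edgeR. In barcodes with no marker it was at 36.1 and 72.3 CPM in the 2 groups, with ranges of 19.1 to 46.1 and 43.7 to 146. These last values cover all 7 healthy dogs and 10 dogs with OS, so the sets of dogs differ.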

How the data were processed

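UMI counts per gene and barcode were used as the authors deposited them, in 1 matrix per dog for 17 dogs. According to the submitters' processing notes and the study's methods, reads were aligned and counted with Cell Ranger 7.0.0 on CanFam3.1, with and without intronic reads; which of the 2 the deposited counts hold is not given in the sources used here. The authors' own downstream steps in Seurat, which removed platelets and regressed platelet reads, do not affect these counts. The 20257 genes were counted from 3′ ends, 1 UMI per molecule, and levels are not divided by gene length.

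The platelet barcodes, their rule and the gene lists were chosen with earlier results of these data known. The named genes are the 4 markers, the 4 genes of each platelet list and of the megakaryocyte regulators and the 2 of every other list with the highest mean CPM in platelet barcodes without a leukocyte gene, the 8 outside the lists with the largest ratio at 100 CPM or more, and up to 3 called genes in each direction at 10 CPM or more, of which there were none. Some genes that this rule names are not reported here. Other genes named from the lists stand beside these for background and were chosen after their values were seen.

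Shares per dog were compared with exact rank-sum tests, classes with exact sign-flip permutation tests over dogs, with Benjamini-Hochberg adjustment within each family. UMIs were summed per dog with at least 25 barcodes and tested with edgeR 4.0.16 (quasi-likelihood, TMM, at least 10 counts per gene), with DESeq2 1.42.0 as an alternative. Standard errors of fold changes come from the fold change and its F statistic. Scripts used Python 3.11.15, scipy 1.17.1 and R 4.3.3 and were tested on simulated data. No column of any matrix was left without a sample (0), and no doublet caller was run. The labels give no batch or date and pair no dogs across groups. With 1 library per dog, the tests rest on the spread between dogs, which cannot be separated from that between blood draws, preparations and libraries.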

Additional observations from a re-analysis of the deposited data

Results flagged for a closer look

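In 46 sets of 7 to 10 dogs examined for a far value, 7 values had a gap to the nearest dog larger than Dixon's 95% limit, where chance gives about 1 in 20. Healthy dog 1 had exactly 1 marker in 26.2% of its kept barcodes and OS dog 6 in 25.4%, each far above the other dogs of its group. PPBP was detected in 31.3% of the kept barcodes of healthy dog 1, and PPBP per TUBB1 UMI in its barcodes other than platelet barcodes without a leukocyte gene was 3.81, against 1.36 to 1.785 in the other healthy dogs. In OS dog 6, 78.0% of platelet barcodes held a leukocyte gene, and GNG11 was found in 91.6% of its platelet barcodes without one, against at least 98.45% in the other dogs with OS. The platelet barcodes without a leukocyte gene of OS dog 3 had the lowest median, 566 UMIs, over 3 barcodes. No cause of these values was tested.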

How the results depend on the processing

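Each alternative changed 1 choice, except that thinning to 1000 UMIs also left out all barcodes under 1000 UMIs. The share of all platelet barcodes and of those with a leukocyte gene kept its direction and stayed short of the threshold under all 12 alternatives, as did the share within each lineage under all 10. Without a leukocyte gene the difference (OS minus healthy) turned to -0.0203 percentage points with any gene of the broad leukocyte lists in the split. Those lists include the B cell list. Of the 2796 platelet barcodes without a leukocyte gene, 2695 held a gene of them, so few stayed on that side. The percentage of platelet barcodes that held a leukocyte gene turned to -2.87 points after thinning to 1000 UMIs. That alternative drops most barcodes without a leukocyte gene, whose median was 744 UMIs. Leaving out each dog in turn gave 1.51 to 2.92 points for all platelet barcodes, 0.514 to 1.24 without and 0.910 to 1.83 with a leukocyte gene, and 1.17 to 8.55 for the percentage that held one. Within lineages it gave 0.383 to 1.45 points for T cell-like, 1.40 to 2.21 for monocyte-like, 0.296 to 1.19 for neutrophil-like and 3.68 to 8.65 for B cell-like barcodes.

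The order of lineages in marker UMIs depended on the scale. T cell-like minus monocyte-like was 0.0187 thinned, 21.1 as CPM, 0.275 with surface receptor genes and -0.0726 with a margin of 1 gene, which passed. T cell-like minus neutrophil-like was -0.0482 thinned, -40.35 as CPM and 4.09 with surface receptor genes. Monocyte-like minus neutrophil-like was -0.0668 thinned and -61.4 as CPM, and missed the threshold at 0.0886 with a margin of 1 gene, 0.0899 without healthy dog 1 and OS dog 6 and 0.0329 without PPBP. With surface receptor genes the differences of B cell-like barcodes, -0.516 from T cell-like (T cell-like minus B cell-like) and 0.791 over monocyte-like ones, missed it too. Leaving out 1 dog gave -0.0416 to -0.0241 for T cell-like minus monocyte-like, 0.0593 to 0.0951 for T cell-like minus neutrophil-like (passing without OS dog 1 at 0.0951 or OS dog 9 at 0.0926), 0.0968 to 0.133 for monocyte-like minus neutrophil-like, and -2.46 to -1.83, 1.80 to 2.42 and 1.91 to 2.54 for the B cell-like pairs. The correlation over all dogs ranged from 0.417, without OS dogs 3 and 5, to 0.826 under 4 alternatives. With PPBP left out it was 0.837 in healthy dogs and 0.777 in dogs with OS. The causes were not tested.

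Without a leukocyte gene the number of called genes was 22 with no filter beyond 1 count (CIDEA, TCF4, RAB3C, FOS, HBM and NCCRP1 among them), 2 with at least 2 markers other than PPBP (CIDEA and TCF4), 2 in barcodes of up to 2000 UMIs (CIDEA and ENSCAFG00000032615) and 1 without healthy dog 1 and OS dog 6 (CIDEA), and 0 to 3 with 1 dog left out: 3 without healthy dog 5, 1 without OS dog 6 and 3 without OS dog 7. With a leukocyte gene DESeq2 called 4 (NCAM1, DOCK9, ENSCAFG00000031706 and CMSS1), and leaving out 1 dog gave 0 to 1, the 1 without OS dog 7. A replicate block over numbers found in both groups called 0 genes in both kinds of barcode, as did the same dogs without the block. Same-numbered dogs correlated from -0.14 to 0.196 over 6 pairs and from -0.11 to 0.282 over 5, so the numbers pair no dogs. Alternatives that leave out healthy dog 1 and OS dog 6, leave out PPBP, cap or raise the UMIs or thin to 500 UMIs were chosen after the data were seen. The smallest sum without a leukocyte gene held 26319 UMIs, and the effect of depth on the number of called genes was not tested.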

Other observations

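Platelet barcodes without a leukocyte gene were also divided into 4 depth bins of 698 to 702 barcodes. Markers made up 24000, 23890, 24370 and 18220 CPM from the shallowest bin (500 to 599 UMIs) to the deepest (1020 to 17179 UMIs), and GNG11 28670, 27190, 26830 and 18570 CPM. A pan-leukocyte gene was found in 17.2%, 20.1%, 21.4% and 28.9% of them. The first 3 bins were near each other in the CPM of platelet genes, and the deepest was lower. The shares with a pan-leukocyte gene are not matched for depth, and detection rises with the UMIs of a barcode.

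In the order of genes of the RefSeq annotation of UU_Cfam_GSD_1.0, CCL14 lies between CCL23 and CCL16 and 2 genes from CCL5. CD79A lies between ARHGEF1 and RPS19, a ribosomal protein gene. CCL23, ARHGEF1 and RPS19 have no entry under these names among the genes counted. Whether reads of neighbouring genes were counted under CCL14 or CD79A was not tested.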
